A study of Mus musculus with 9 samples.

Results

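The 10 genes described here, *Hif1a*, *Egln3*, *Slc2a1*, *Hk2*, *Pgk1*, *Ldha*, *Pdk1*, *Bnip3*, *Vegfa* and *Ankrd37*, belong to the hypoxia response and to glycolysis. They were chosen by symbol, and each matched 1 of the 54838 Ensembl mouse gene identifiers for which the study lists values. *Bnip3* is also a gene of the study's necroptosis panel. Bulk RNA-seq came from organoids, which are cultures that grow from intestinal crypts as a closed epithelium. The crypts came from small intestines, and the mice were *Vil-CreERT2*;*Mettl3* fl/fl (C57BL/6 by the labels, and in the study's methods males of 2 to 4 months). In them the villin promoter confines a 4-OHT-inducible Cre to epithelial cells and Cre excises the floxed part of *Mettl3*, an RNA m6A methyltransferase. All groups carry both alleles. They received ethanol (EtOH) or 4-hydroxytamoxifen (4-OHT) for 2 days and DMSO or necrostatin-1 (Nec-1, an inhibitor of the kinase RIPK1) for 5 days. The group with both 4-OHT and Nec-1 has 1 library, and the other 3 groups have 2 each. No group lacked Cre, so 4-OHT itself and the deletion cannot be told apart. The study's statistics section states at least 3 biological replicates for its experiments in general, more than the libraries of any group here. Neither it nor the labels say whether libraries of a group came from separate cultures or animals, so p-values measure only the spread between these libraries.

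Cells adapt to low oxygen through the transcription factor HIF-1, a pair of HIF-1α (*Hif1a*) and ARNT. With oxygen, the prolyl hydroxylases of the EGLN family mark HIF-1α for ubiquitination by VHL and destruction, so that its amount is set mainly at the protein and not at the mRNA. Stable HIF-1 binds short DNA motifs near genes for glucose uptake, glycolysis, lactate production, vessel growth and mitophagy, and several of its targets, such as *Egln3*, restrain it in turn. The intestinal epithelium normally lies on a steep oxygen gradient between the vessels and the lumen, and many of these genes are active there at rest.

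The values are FPKM, counts of fragments scaled for the length of the transcript and the mapped fragments of the library, so levels of different genes can be set side by side. Between 11559 and 12038 genes had at least 1 FPKM in a library, and the sum of FPKM ran from 450207 to 498712. The fragment counts behind single values are unknown. *Mettl3*, the targeted gene, reached 3.72 and 4.14 FPKM under the label 4-OHT DMSO and 3.36 under 4-OHT Nec-1, beside 2.70 and 2.71 FPKM in EtOH organoids without Nec-1 and 2.41 and 2.47 with it. It was therefore not lower under 4-OHT labels. By the test described below it was called higher in 4-OHT DMSO than in EtOH DMSO (log2 fold change 0.41, standard error 0.10, limma adjusted p = 0.0231). Whole-gene values do not show the excision, so every direction between EtOH and 4-OHT below rests on the labels. The defining epithelial markers *Epcam* and *Vil1* were at 431 to 609 and 102 to 159 FPKM over the 7 libraries. The 6 fibroblast markers together stayed at 0.137 FPKM or less, the 5 endothelial ones at 0.226 or less, and the 6 immune ones at 0.835 to 2.69, with *Itgam* alone at 0.315 to 2.45.

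The core of a hypoxia response element is the letters ACGTG or GCGTG. Both were searched on both strands in the 250 bases before each listed start site (GRCm38.p6). A listed site need not be the outer end of the gene, and other starts may be missing. *Ldha*, for example, begins at chr7:46842274, and the window of its first listed site ends at 46845803. The letters CACGTG match on both strands and count as 2 matches. The table holds 13 such windows for the 10 genes. Of these, 11 windows held at least 1 match, and each gene had a window with one, while 38.6% of all 32851 windows in the table held one. *Vegfa*, *Pdk1* and *Ldha* have 2 windows each, so the count of genes is not comparable with that share of windows. The first window of *Vegfa* (chr17:46032378-46032627) and the second of *Pdk1* held 0 matches. The matches of *Vegfa* lay in its second window (chr17:46025164-46025413). At least 3 matches occurred in 4 of the 13 windows and in 6.58% of all windows, and at least 5 in 2 windows, those of *Bnip3* and *Ldha*, and in 1.01% of all. The windows of 2 genes that were lower in the libraries labelled 4-OHT DMSO (*Bnip3* and *Pgk1*), of *Ldha*, and of the 2 that were higher (*Hk2* and *Slc2a1*) are shown in the direction of transcription, with matches in capitals, because genes that moved in opposite directions share these letters. A match is a description of the letters and not a measured binding site.
Bnip3 (chr7:138909507-138909756, minus strand): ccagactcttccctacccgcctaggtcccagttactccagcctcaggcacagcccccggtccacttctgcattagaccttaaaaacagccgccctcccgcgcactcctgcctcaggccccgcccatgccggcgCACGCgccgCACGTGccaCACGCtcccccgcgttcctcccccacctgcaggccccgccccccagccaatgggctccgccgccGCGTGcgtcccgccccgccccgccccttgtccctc
Pgk1 (chrX:106186850-106187099, plus strand): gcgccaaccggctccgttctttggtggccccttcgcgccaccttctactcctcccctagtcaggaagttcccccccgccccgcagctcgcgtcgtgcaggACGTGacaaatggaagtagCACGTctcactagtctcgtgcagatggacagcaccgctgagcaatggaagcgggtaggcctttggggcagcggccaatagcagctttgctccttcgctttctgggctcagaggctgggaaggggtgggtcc
Ldha, first start site (chr7:46845554-46845803, plus strand): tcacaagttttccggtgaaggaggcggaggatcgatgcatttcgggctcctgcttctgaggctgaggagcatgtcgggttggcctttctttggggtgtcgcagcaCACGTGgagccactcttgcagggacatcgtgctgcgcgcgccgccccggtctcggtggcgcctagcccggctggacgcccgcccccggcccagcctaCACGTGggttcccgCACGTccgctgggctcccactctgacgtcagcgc
Hk2 (chr6:82774455-82774704, minus strand): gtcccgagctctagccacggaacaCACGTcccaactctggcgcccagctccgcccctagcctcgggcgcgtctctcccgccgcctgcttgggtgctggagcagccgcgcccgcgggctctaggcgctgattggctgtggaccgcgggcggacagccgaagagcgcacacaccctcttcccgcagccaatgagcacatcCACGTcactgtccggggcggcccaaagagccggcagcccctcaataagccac
Slc2a1 (chr4:119108495-119108744, plus strand): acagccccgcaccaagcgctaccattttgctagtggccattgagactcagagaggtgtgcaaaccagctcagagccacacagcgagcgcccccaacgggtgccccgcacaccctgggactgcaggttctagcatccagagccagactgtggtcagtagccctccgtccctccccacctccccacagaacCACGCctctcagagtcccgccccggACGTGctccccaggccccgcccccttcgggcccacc
Counted from the start site, the matches of *Bnip3* began between -117 and -35, those of *Ldha* between -145 and -34, and those of *Hk2* at -226 and -52.

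In control organoids (EtOH DMSO) the enzymes of later glycolytic steps, *Pgk1* and *Ldha*, were the most abundant of the 10 transcripts per length. *Pgk1* stood at 1014 and 1095 FPKM and *Ldha* at 636 and 692. *Egln3* followed at 115 and 117, *Bnip3* at 81.6 and 85.5, *Ankrd37* at 43.9 and 44.2 and *Pdk1* at 38.8 and 39.7. *Vegfa* and *Slc2a1* came next with overlapping values of 29.8 to 30.7 and 28.2 to 31.7. *Hif1a* and *Hk2* were the lowest and also overlapped, at 13.6 in both libraries and at 10.8 and 14.2. The other neighbours in this order did not overlap. In the libraries labelled 4-OHT DMSO, *Hk2* moved from the last place to the sixth, above *Ankrd37*, *Pdk1*, *Vegfa* and *Hif1a*, and *Slc2a1* reached the range of *Bnip3*.

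**Figure D1:**
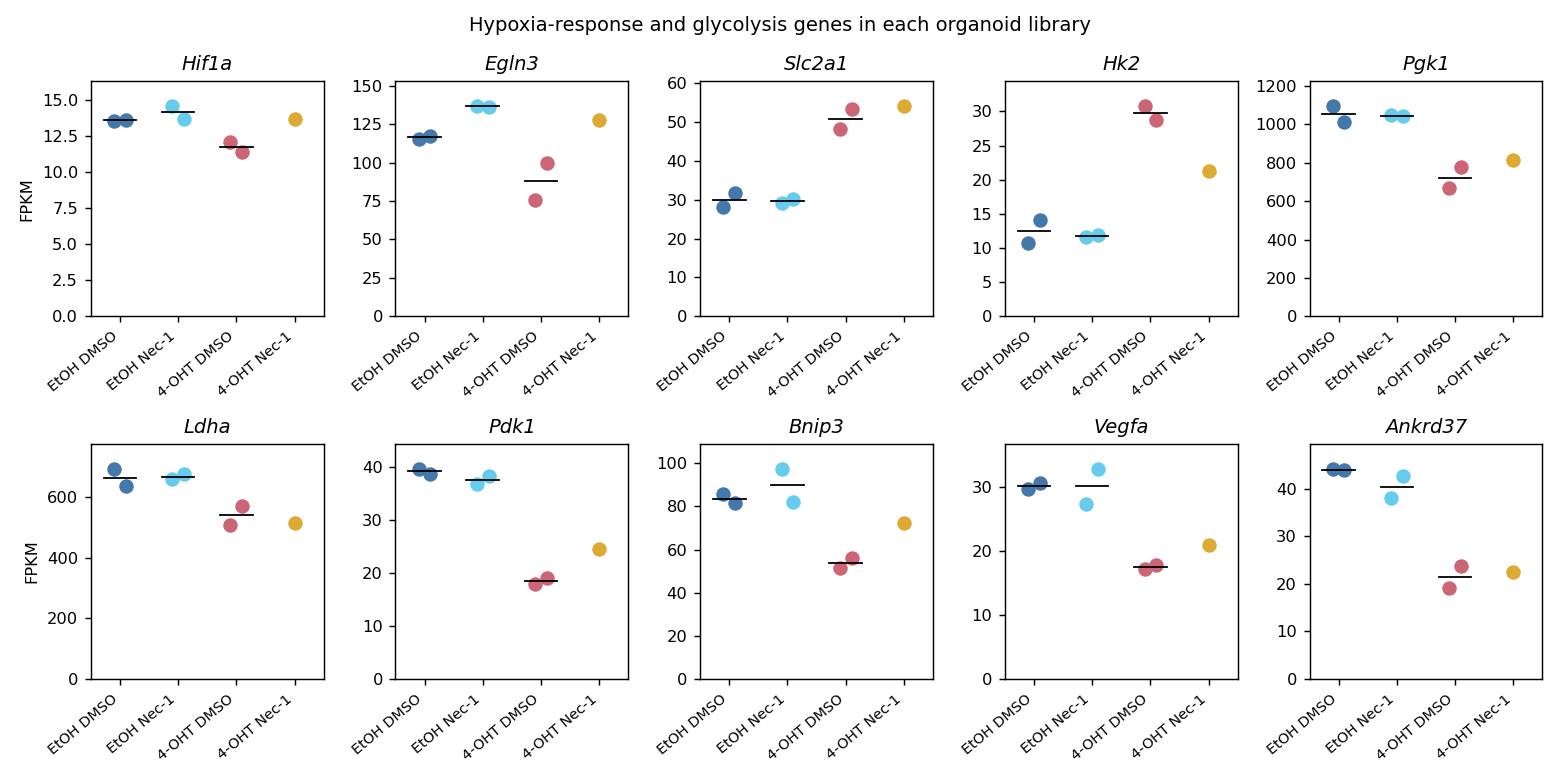
FPKM (vertical axes, each from 0) of the 10 genes in the 7 organoid libraries, with groups along the horizontal axes, 1 point per library and a bar at the mean where a group has 2 libraries. The 4-OHT DMSO points lie below both EtOH DMSO points in 8 panels and above both in the *Slc2a1* and *Hk2* panels.

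The first comparison, 4-OHT DMSO against EtOH DMSO, asks what differs in organoids after the recombinase is switched on. Of the 10 genes, 5 fell (*Pdk1*, *Ankrd37*, *Vegfa*, *Bnip3* and *Pgk1*), 2 rose (*Hk2* and *Slc2a1*), and 3 did not pass the test (*Egln3*, *Ldha* and *Hif1a*), although for 8 genes both 4-OHT DMSO libraries lay below, and for 2 above, both EtOH DMSO libraries. Over all genes, 30.8% lay wholly below and 40.7% wholly above. The test was limma on log2(FPKM + 1) with Benjamini-Hochberg adjustment over 12702 genes and a threshold of 0.05, and by it 16.7% of all genes tested were lower and 24.5% higher. All 10 genes passed the filter of at least 1 FPKM in at least 2 libraries. Their median log2 fold change was -0.48, beside 0.077 for all genes. Under median centring of the libraries the all-gene median became -0.080 and the share of higher genes among all calls went from 59.5% to 41.0%. Centring left the direction of each of the 10 as it was and gave 8 lower and 2 higher. Over all 12702 genes it gave 3187 lower and 2213 higher, beside 2120 lower and 3117 higher without it. In bulk RNA, fewer cells of a type and less RNA per cell cannot be told apart.

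Of the regulators, *Hif1a* (ENSMUSG00000021109, chr12:73901324-73947554), which encodes the oxygen-labile subunit, was at 13.6 and 13.6 FPKM in EtOH DMSO and at 12.1 and 11.4 in 4-OHT DMSO, a log2 fold change of -0.19 (standard error 0.08, limma adjusted p = 0.108). *Egln3* (ENSMUSG00000035105, chr12:54178981-54203874), the prolyl hydroxylase that HIF itself induces, was at 115 and 117 FPKM against 75.7 and 100.0. The 4-OHT DMSO libraries differed more from each other than for any other of the 10 genes on the log2 scale, and the log2 fold change of -0.42 (standard error 0.14) missed the threshold (limma adjusted p = 0.0611). Without the first 4-OHT DMSO library it was -0.22 (limma adjusted p = 0.104), and without the second -0.61 (limma adjusted p = 0.00663).

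*Slc2a1* and *Hk2*, which act at glucose entry, went the other way. *Slc2a1* (ENSMUSG00000028645, chr4:119108745-119137330), which encodes the glucose transporter GLUT1, was at 28.2 and 31.7 FPKM in EtOH DMSO and at 48.3 and 53.3 in 4-OHT DMSO, a log2 fold change of 0.74 (standard error 0.10, limma adjusted p = 0.00333). *Hk2* (ENSMUSG00000000628, chr6:82725025-82774454), hexokinase 2, which traps glucose in the cell as glucose 6-phosphate, rose from 10.8 and 14.2 FPKM to 30.8 and 28.8, and its mean was 2.39 times that of EtOH DMSO (log2 fold change 1.20, standard error 0.13, limma adjusted p = 0.00227). Of all genes tested, 4.83% had a log2 fold change at least as high.

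Of the enzymes of later glycolytic steps, *Pgk1* was called lower and *Ldha* was not. *Pgk1* (ENSMUSG00000062070, chrX:106187100-106203699), phosphoglycerate kinase, which makes ATP, was at 1095 and 1014 FPKM in EtOH DMSO and at 669 and 777 in 4-OHT DMSO, and fell with a log2 fold change of -0.55 (standard error 0.11, limma adjusted p = 0.0131). The call was lost without the first EtOH DMSO library (log2 fold change -0.49, limma adjusted p = 0.0526). *Ldha* (ENSMUSG00000063229, chr7:46842274-46855627), the lactate dehydrogenase subunit that turns pyruvate into lactate, was at 692 and 636 FPKM against 509 and 569, with a log2 fold change of -0.30 (standard error 0.10) that missed the threshold (limma adjusted p = 0.0591). It passed without the second 4-OHT DMSO library (-0.38, limma adjusted p = 0.0395). Both genes have processed copies elsewhere in the genome with which fragments may have been shared, so their absolute levels are less certain than the others.

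*Pdk1* (ENSMUSG00000006494, chr2:71873215-71903858), a kinase that switches off pyruvate dehydrogenase and so keeps pyruvate out of the mitochondrial citric acid cycle, fell. It was at 39.7 and 38.8 FPKM in EtOH DMSO and at 17.9 and 19.2 in 4-OHT DMSO, which gave a log2 fold change of -1.04 (standard error 0.08, limma adjusted p = 0.000792), and 3.71% of all genes tested fell at least as far. *Bnip3* (ENSMUSG00000078566, chr7:138890836-138909506), a mitophagy receptor of the outer mitochondrial membrane that is also named among cell death genes, was at 85.5 and 81.6 FPKM against 51.5 and 56.0. The groups were apart by more than the gap within either, with a log2 fold change of -0.63 (standard error 0.11 and limma adjusted p = 0.00823).

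*Vegfa* (ENSMUSG00000023951, chr17:46016993-46032377), the secreted growth factor for endothelial cells, was at 29.8 and 30.7 FPKM in EtOH DMSO and at 17.2 and 17.8 in 4-OHT DMSO. With a log2 fold change of -0.76 (standard error 0.11, limma adjusted p = 0.00421), its 2 groups were separated by far more than the gap within either. *Ankrd37* (ENSMUSG00000050914, chr8:45996908-46000414), an ankyrin repeat gene known mainly as a HIF target, was at 44.2 and 43.9 FPKM against 19.1 and 23.7 (log2 fold change -1.01, standard error 0.12, limma adjusted p = 0.00278).

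**Figure D2:**
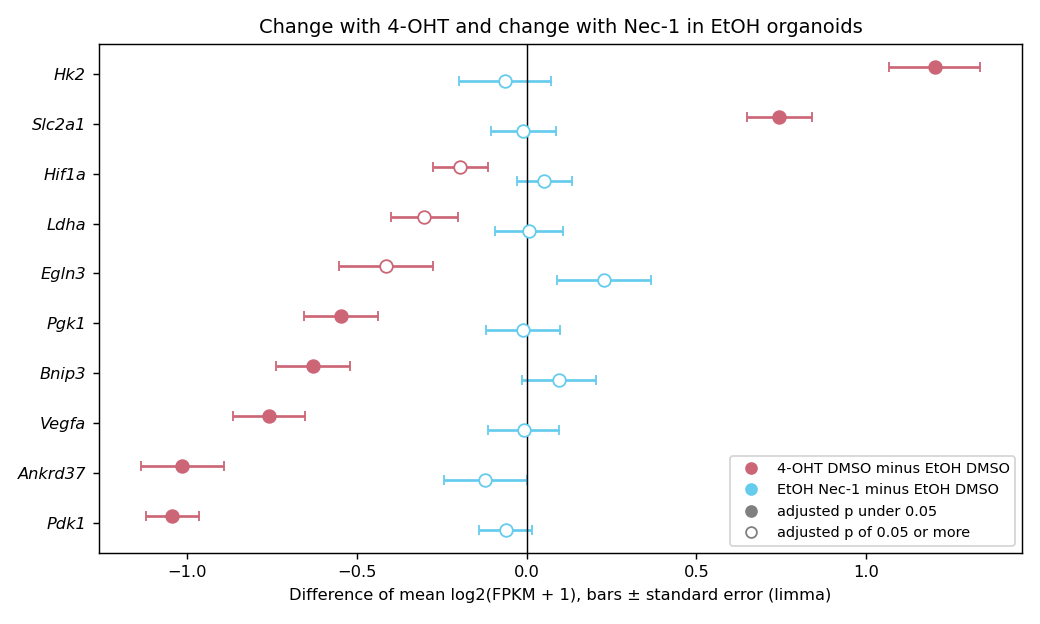
Difference of mean log2(FPKM + 1) (horizontal axis) for the 10 genes, 4-OHT DMSO minus EtOH DMSO and EtOH Nec-1 minus EtOH DMSO, with bars of 1 standard error from limma and filled points for an adjusted p under 0.05. The 4-OHT differences run from -1.04 for *Pdk1* to 1.20 for *Hk2*, while the Nec-1 differences stay between -0.12 and 0.23.

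Wider lists of related genes showed the same mixture in 4-OHT DMSO against EtOH DMSO, with more genes lower than higher among glycolytic and hypoxia-induced genes. The share of all genes tested to set beside each list was 16.7% lower and 24.5% higher. Of 23 further glycolysis enzymes and lactate carriers, 19 were tested, 12 fell and 2 rose, and their median log2 fold change was -0.47. The liver-type pyruvate kinase gene *Pklr* fell by 1.40, the enolase *Eno2* by 1.33, the glucose-6-phosphate isomerase *Gpi1* by 1.23 and the aldolase *Aldoc* by 1.18 on the log2 scale. *Eno2* was low, at 2.23 and 3.21 FPKM in EtOH DMSO and at 0.384 and 0.551 in 4-OHT DMSO. The far more abundant enolase *Eno1*, named after its values were seen, went from 363 and 337 FPKM to 232 and 256 (log2 fold change -0.52). The 2 that rose, named after their values were seen, were the hexokinase *Hk1* (from 7.27 and 9.62 FPKM to 18.1 and 16.1) and the lactate exporter gene *Slc16a3* (from 24.7 and 24.4 to 50.2 and 51.9), with log2 fold changes of 0.95 and 1.03. The hexokinases did not move together, since *Hkdc1*, also named after its values were seen, fell from 44.2 and 51.8 FPKM to 31.2 and 35.2 (log2 fold change -0.52, limma adjusted p = 0.0155). The other lactate carrier, *Slc16a1*, was at 44.1 and 41.4 FPKM against 37.0 and 37.8 and did not pass the test (log2 fold change -0.19, limma adjusted p = 0.0965).

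Of 30 other hypoxia-induced genes, 25 were tested, 12 fell and 3 rose, with a median of -0.38. *Car9*, a carbonic anhydrase that handles acid and a standard HIF target, went from 164 FPKM in both EtOH DMSO libraries to 69.2 and 92.6 (log2 fold change -1.03, standard error 0.15, limma adjusted p = 0.00471). *Ndrg1*, a stress-induced gene, went from 85.9 and 90.6 to 41.4 and 47.8, with a log2 fold change of -0.97. *Narf* (-0.99), the histone demethylase *Kdm3a* (-0.88) and the glycogen branching enzyme *Gbe1* (-0.73) also fell. The 3 that rose, named after their values were seen, were *Fam162a* (0.66), *Jmjd6* (0.51) and *Angptl4* (0.45), the last of which was not called with median centring, upper quartile or TPM scaling.

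The oxygen-sensing machinery held few called genes. Of 15 genes for HIF partners, hydroxylases, the VHL complex and coactivators, 14 were tested, 2 rose (*Elob*, 0.52, and *Rbx1*, 0.29, both of the ubiquitin ligase) and 1 fell (*Epas1*, which encodes HIF-2α, -0.56), with a median of 0.01. With median centring 0 rose and 3 fell, while over all 12702 genes tested 2213 were then higher and 3187 lower. *Arnt*, the HIF partner, was at 2.71 and 3.95 FPKM in EtOH DMSO and at 2.20 and 2.17 in 4-OHT DMSO (log2 fold change -0.43, limma adjusted p = 0.0783). It falls outside the rule for named genes and is given for its role.

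At the pyruvate dehydrogenase gate, 11 of 12 listed genes were tested, 3 fell and 2 rose, with a median of -0.22. Beside this list and those that follow, 16.7% of all genes tested were lower and 24.5% higher. *Pdk2*, a second kinase that inhibits the complex, fell from 19.6 and 22.2 FPKM to 4.25 and 5.35 (log2 fold change -1.92, limma adjusted p = 0.000595). *Pdp1*, the phosphatase that reactivates the complex, rose from 1.50 and 1.72 FPKM to 5.60 and 5.93 (log2 fold change 1.38, limma adjusted p = 0.000765). The catalytic subunit *Pdha1* fell by 0.64 and the pyruvate carrier *Mpc2* by 0.26, and the anchoring subunit *Pdhx* rose by 0.69 on the log2 scale. Of 11 other mitophagy genes, 10 were tested, 4 fell and 2 rose (median -0.19). *Bnip3l*, the closest relative of *Bnip3*, fell from 45.1 and 44.3 FPKM to 26.5 and 28.8 (log2 fold change -0.67), and *Pink1* (-0.45), *Fundc1* (-0.34) and *Fkbp8* (-0.28) fell too. *Sqstm1*, an autophagy adaptor, rose by 0.59, and *Gabarapl1*, named after its value was seen, by 0.27, a call that was lost with median centring, upper quartile and TPM scaling (limma adjusted p 0.309, 0.360 and 0.151). Of 9 genes for other VEGF ligands and the VEGF receptors, only 2 passed the filter. *Vegfc* rose from 0.562 and 0.323 FPKM to 2.86 and 2.49 (log2 fold change 1.35), and *Vegfb* fell by 0.32. The receptors *Flt1*, *Kdr* and *Flt4* were at 0.012 FPKM or less in each library, as the endothelial markers were also near 0.

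**Figure D3:**
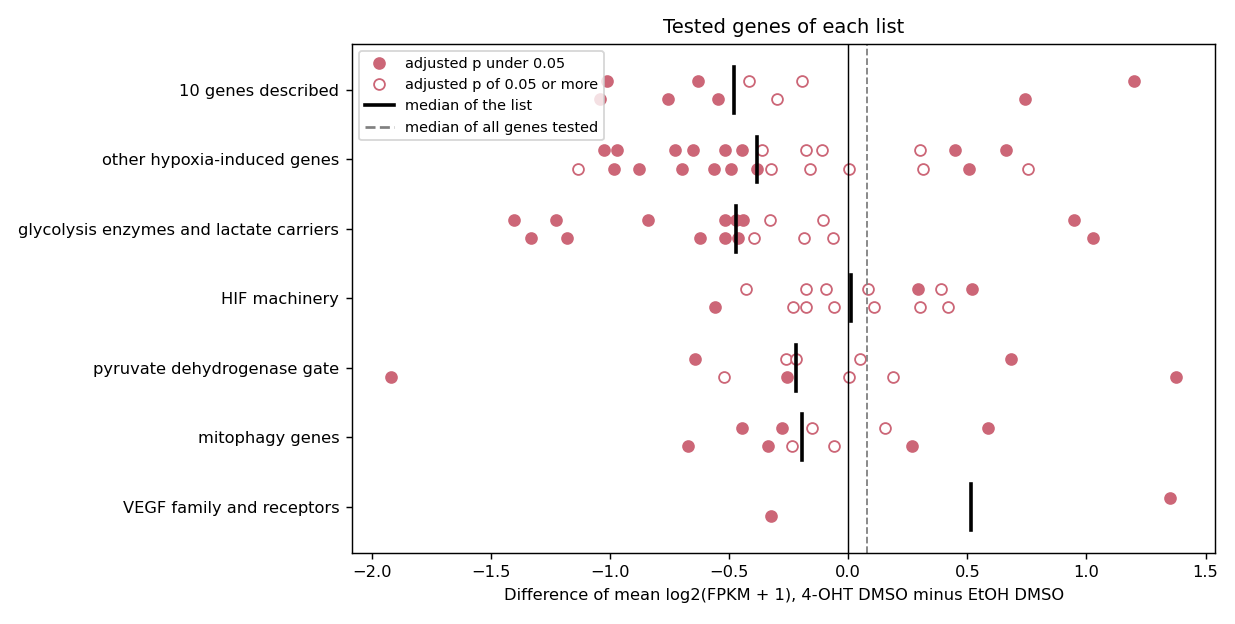
Difference of mean log2(FPKM + 1), 4-OHT DMSO minus EtOH DMSO (horizontal axis), for each tested gene of the 10 described and of 6 wider lists, filled where the limma adjusted p was under 0.05 and with 1 glycolysis gene not drawn. The medians of the full lists, as black bars, lie at -0.48 for the 10 genes, -0.38 for other hypoxia-induced genes and -0.47 for glycolysis, left of the all-gene median of 0.077, while the HIF machinery lies at 0.01.

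Markers of epithelial cell types moved with the same labels. The summed level of 6 Paneth cell markers was 7399 to 8169 FPKM with EtOH and DMSO, 8684 to 8874 with EtOH and Nec-1, 19155 to 19688 with 4-OHT and DMSO and 14695 with 4-OHT and Nec-1, and all 6 rose in 4-OHT DMSO. Of 6 goblet markers 5 rose and of 7 general epithelial markers 5 rose, while of 7 enterocyte markers 3 fell and 2 rose, of 5 stem cell markers 3 fell, and of 5 proliferation markers 2 fell. Beside these counts, 24.5% of all genes tested were higher and 16.7% lower. With median centring the 6 Paneth markers were still called higher, but 3 goblet markers were, and of the general epithelial markers 2 were higher and 1 lower. Of the enterocyte markers 2 were then higher and 4 lower, and 4 stem cell and 2 proliferation markers were lower. Over all genes tested, centring gave 2213 higher and 3187 lower. *Pklr* is known as an enterocyte gene as well as a glycolytic one. The part of cell composition in the changes above was not tested.

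In EtOH organoids Nec-1 was compared with DMSO to see what the inhibitor does without 4-OHT. Of the 10 genes 0 rose and 0 fell by limma, none of them had an unadjusted p under 0.05, and 0.173% of all genes tested were higher and 0.0472% lower. Log2 fold changes ran from -0.12 for *Ankrd37* to 0.23 for *Egln3*, with standard errors of 0.08 to 0.14 and limma adjusted p of 0.525 to 0.988. The median was -0.01 beside -0.09 for all genes. *Egln3* was at 137 and 136 FPKM with Nec-1 against 115 and 117 without, so its libraries did not overlap although the difference missed the threshold. Those of *Hif1a* (14.6 and 13.7 against 13.6 and 13.6), *Pdk1* (36.8 and 38.4 against 39.7 and 38.8) and *Ankrd37* (38.1 and 42.7 against 44.2 and 43.9) did not overlap either. The share of all genes without overlap was not counted for this comparison. For *Bnip3*, at 97.3 and 82.0 FPKM, and *Hk2*, at 11.6 and 11.9, the groups overlapped. Of the genes in the 6 wider lists, 0 were called. This comparison shares the EtOH DMSO libraries with the first.

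The 4-OHT Nec-1 group, which asks what RIPK1 inhibition changes after 4-OHT, has 1 library, so its differences have no replicate check and are given first as values. It is set against the 4-OHT DMSO libraries, which the first comparison also uses. Of the 10 genes, 7 lay above both 4-OHT DMSO libraries (*Egln3*, *Bnip3*, *Pdk1*, *Vegfa*, *Hif1a*, *Pgk1* and *Slc2a1*), 1 below both (*Hk2*) and 2 between them (*Ldha* and *Ankrd37*). Of the 12036 genes whose mean over these 3 libraries was 1 FPKM or more, 24.5% lay above both and 50.6% below both. With median centring, these shares were 41.3% and 32.6%, and 8 of the 10 genes lay above and 1 below. The median difference of the 10 genes was 0.19 on the log2 scale beside -0.09 for all genes, or 0.30 beside 0.03 with centring. By at least 0.5 log2 units beyond both libraries lay 0 of the 10 genes and 7.62% of all genes.

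Of the 8 genes with lower values in 4-OHT DMSO, 4 (*Bnip3*, *Pdk1*, *Vegfa* and *Pgk1*) lay between the 4-OHT DMSO and the EtOH DMSO libraries in the Nec-1 library. *Bnip3* was at 72.2 FPKM, between the values without Nec-1 (51.5 and 56.0) and those of EtOH Nec-1 (82.0 and 97.3), a difference of 0.42 log2 units from the mean of 4-OHT DMSO. *Pdk1* was at 24.6 FPKM against 17.9 and 19.2 (0.39), *Vegfa* at 20.9 against 17.2 and 17.8 (0.25), and *Pgk1* at 815 against 669 and 777 (0.18). *Egln3*, at 128 FPKM against 75.7 and 100.0 (0.55), lay above both EtOH DMSO libraries as well, and so, narrowly, did *Hif1a*, at 13.7 against 12.1 and 11.4 (0.20). Since the 4-OHT DMSO libraries also chose these 8 genes, the count is a description.

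*Hk2* and *Slc2a1* lay on different sides of 4-OHT DMSO. *Hk2* was at 21.3 FPKM with Nec-1 against 30.8 and 28.8 without, a difference of -0.47, and still above each EtOH library. *Slc2a1* was at 54.1 FPKM, above 48.3 and 53.3, with a difference of 0.09. *Ankrd37* at 22.4 FPKM and *Ldha* at 515 FPKM lay inside the range of 4-OHT DMSO, with differences of 0.07 and -0.06. In the limma contrast, with the lone library assumed to vary like the other groups, 4 of the 10 differences had an unadjusted p under 0.05 and 0 passed the adjustment (adjusted p 0.143 to 0.851).

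**Figure D4:**
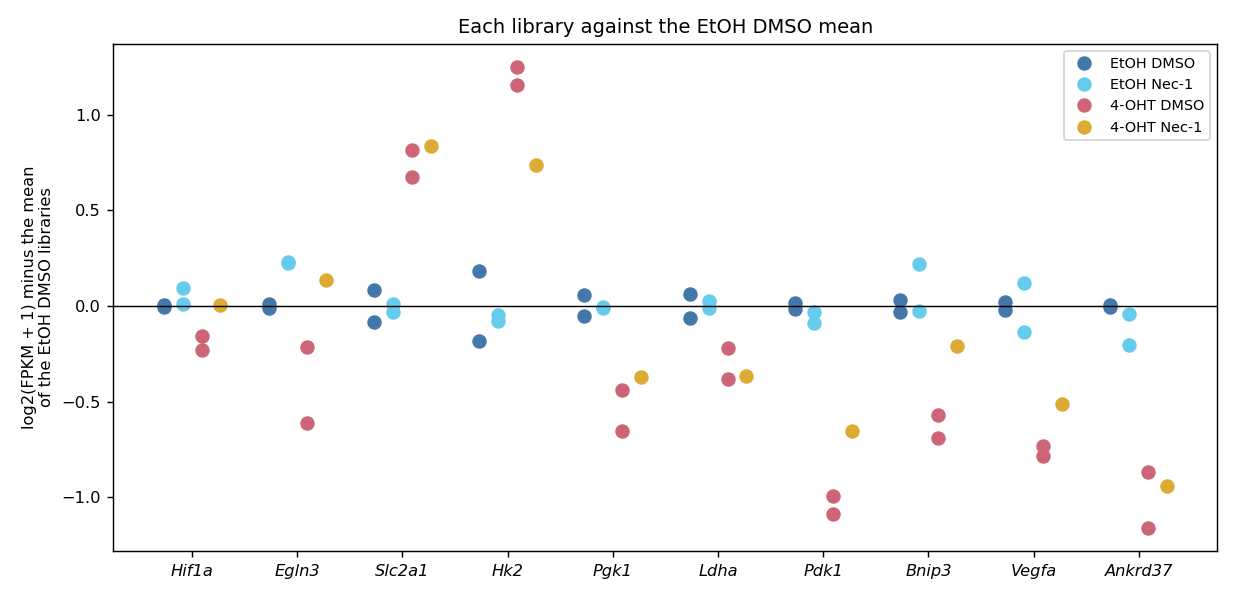
Each library's log2(FPKM + 1) minus the mean of the EtOH DMSO libraries (vertical axis) for the 10 genes, with 1 point per library and the groups by colour. The 4-OHT Nec-1 point lies between the 4-OHT DMSO points and 0 for *Pgk1*, *Pdk1*, *Bnip3*, *Vegfa* and *Hk2*, but not for *Slc2a1*, whose 4-OHT Nec-1 value is 0.83.

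Against EtOH Nec-1, the same library lay below both libraries for 8 genes and above both for 2, *Slc2a1* and *Hk2*, and 49.9% of the 11746 genes compared lay above both and 38.8% below both. By at least 0.5 log2 units lay 4 of the 10 genes and 24.4% of all. These were *Slc2a1* (difference 0.84), *Hk2* (0.80), *Pdk1* (-0.59) and *Ankrd37* (-0.82), while *Egln3* (-0.09) and *Hif1a* (-0.05) differed least. The median of the 10 genes was -0.33 beside 0.07 for all genes. With median centring it was -0.47 beside -0.07, the same split of 8 and 2 was found, and 38.4% of all genes lay above both and 50.3% below both. The 2 comparisons of this library share it, so they are not independent of each other.

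The difference of the Nec-1 effects between 4-OHT and EtOH organoids was tested as a limma contrast over all 7 libraries, again with the lone library assumed to vary like the other groups. Of the 10 genes 0 were called in either direction, as 0.0157% of all genes were higher and 0.0394% lower, and 1 of the 10, *Pdk1*, had an unadjusted p under 0.05. Its difference was 0.45 log2 units (standard error 0.12), with a limma adjusted p = 0.377. The others ran from -0.40 for *Hk2* to 0.32 for *Bnip3* and *Egln3*, with adjusted p of up to 0.918, so that a different response to Nec-1 was not detectable for any of them with these libraries.

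As a description over the 7 libraries, the genes with log2(FPKM + 1) most like that of *Bnip3* were *Plgrkt* (Pearson's r = 0.984), *Pnkd*, *Gm47483* and *Ces2e* (0.982 each) and *Mogat2* (0.981). *Ces2e*, a carboxylesterase, was at 276 and 277 FPKM in EtOH DMSO, 299 and 284 with Nec-1 added, 131 and 146 in 4-OHT DMSO and 215 with Nec-1 added. The libraries form an EtOH and a 4-OHT set for these genes, so r rests mostly on that gap.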

How the data were processed

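RNA-seq of 7 organoid libraries was analysed, grouped by their labels. The authors deposited FPKM, 1 value per Ensembl gene and library, already scaled for transcript length and mapped fragments. Per the submitters' processing notes, HISAT2 2.1.0, StringTie 1.3.3b and mm10 were used, and in the study's methods the libraries were run on an Illumina platform. No column was left unmapped (0), and 2 columns repeated values of other tables. The 2 ChIP samples were not used here.

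The 10 genes and all lists were chosen with earlier results of these data known. Lists were HIF machinery, other hypoxia-induced genes, glycolysis enzymes and lactate carriers, pyruvate dehydrogenase gate, mitophagy genes, VEGF family and receptors, and markers of epithelium, enterocytes, Paneth, goblet, stem, proliferating, immune, fibroblast and endothelial cells. Symbols were matched through RefSeq GRCm38.p6, which also gave coordinates and promoter sequences. From each wider list the 5 tested genes with the largest absolute log2 fold change among those called were named, with any gene called with Nec-1 in EtOH organoids, and for *Bnip3* the 5 genes most correlated with it. Of these, 1 glycolysis gene is counted with its list but not reported here by name.

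Python 3.11.15 and limma 3.58.1 were used. Limma with a mean-variance trend was fitted to log2(FPKM + 1), with 1 mean per group over 7 libraries and 3 residual degrees of freedom, and tested on simulated data. The pseudocount of 1 makes fold changes of low genes smaller than the ratio of their values. 4-OHT Nec-1 was compared without a test, over genes averaging 1 FPKM or more. Alternatives were median centring, upper quartile and TPM scaling, limma with no trend, other filters, a pseudocount of 0.1, only the 4 libraries compared, the replicate number as a block, a limma contrast for the lone library, a step of 1 log2 unit, and each library left out in turn.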

Additional observations from a re-analysis of the deposited data

Results flagged for a closer look

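For *Pdk1*, the Nec-1 libraries lay on opposite sides of the DMSO libraries in EtOH and in 4-OHT organoids. In EtOH organoids both Nec-1 libraries (36.8 and 38.4 FPKM) lay below both DMSO libraries (39.7 and 38.8), and in the organoids labelled 4-OHT the Nec-1 library (24.6) lay above both DMSO libraries (17.9 and 19.2). The change in EtOH organoids was a log2 fold change of -0.06, within its standard error of 0.08 (limma adjusted p = 0.770), and 0.04 with median centring, so an opposite direction is not shown. The difference of the changes was 0.45 on the log2 scale (standard error 0.12). The limma contrast over all 12702 genes gave an unadjusted p of 0.0122 and an adjusted p of 0.377, so the difference did not pass the threshold, and 1 of its 4 arms is a single library. Groups of at most 2 libraries gave no test for a library far from the others.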

How the results depend on the processing

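Between 4-OHT DMSO and EtOH DMSO, each of the 10 genes kept its direction under each alternative run. The 2 higher genes were called in each, and the number of lower genes called, 5, became 8 with median centring and 8 with upper quartile scaling, through *Egln3*, *Ldha* and *Hif1a*. It was 7 with TPM scaling and 4 with no filter, and 4 to 7 with a library left out (4 without the first EtOH DMSO library, 7 without the second 4-OHT DMSO library). Over all genes tested, lower calls went from 2120 to 3187 with median centring, 2976 with upper quartile scaling and 2405 with TPM scaling. Higher calls over all genes went from 3117 to 2213, 2232 and 2605 in the same order. *Hk2* had the largest change of the 10 genes in the values reported, but with median centring its 1.04 was smaller in size than the -1.20 of *Pdk1* and the -1.17 of *Ankrd37*. Without the second 4-OHT DMSO library *Ankrd37* (-1.16) fell further than *Pdk1* (-1.09). *Pgk1* lost its call with no filter on low values (limma adjusted p = 0.0514). Over all alternatives the limma adjusted p ran from 0.00534 to 0.0526 for *Pgk1*, 0.0151 to 0.165 for *Ldha*, 0.00663 to 0.175 for *Egln3* and 0.0228 to 0.288 for *Hif1a*. Where a group was left with 1 library, that library was assumed to vary like the other groups. For Nec-1 in EtOH organoids, the count of all genes called, 28, was 8 with no filter, 43 with upper quartile scaling, 87 with only the 4 libraries compared, and 9 to 79 with a library left out (79 without either 4-OHT DMSO library, 9 to 14 without one of the EtOH libraries), and 0 of the 10 genes were called in any of these. For the difference of the Nec-1 effects the count of 7 was 3 with 1 FPKM in every library and 1 to 323 with a library left out (323 and 21 without the first and the second 4-OHT DMSO library, 1 to 4 without an EtOH library), and again 0 of the 10 genes were called. For 4-OHT Nec-1 against 4-OHT DMSO, the genes at least 0.5 log2 units beyond both libraries were 0, but 2 with upper quartile scaling and 0 to 2 with a library left out (2 without the second). The 1 gene below both became 2 with TPM scaling and 1 to 3 with a library left out (3 without the first). With TPM scaling 55.0% of all genes lay below both, beside 50.6% in the values reported. Against EtOH Nec-1, 0 of the 10 genes lay 1 log2 unit beyond both libraries, and the differences in the limma contrast ran from -0.82 for *Ankrd37* to 0.84 for *Slc2a1*. Calls of that contrast are not given, because they rest on 1 library, and their absence does not mean 0 calls. The causes were not tested, apart from the changed scale or number of libraries in each setting.

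The labels share replicate numbers 1 and 2 without saying what they mark. Differences between replicates 1 and 2 correlated between groups at -0.040 to 0.0065, so same-numbered libraries showed no large shared shift. Whether a number marks a common culture or batch cannot be told from this. With the replicate number as a block, 4697 genes were called between 4-OHT DMSO and EtOH DMSO and 19 with Nec-1 in EtOH organoids, and the 10 genes kept 5 lower and 2 higher calls. For the difference of the Nec-1 effects the block gave 4 calls. Fragment counts are unknown, so depth sets no floor here.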

Other observations

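A few listed genes stood out after their values were seen. *Gbe1*, the glycogen branching enzyme, was at 5.16 and 5.11 FPKM in EtOH DMSO, 7.36 and 7.25 with Nec-1 added, 2.43 and 3.00 in 4-OHT DMSO and 7.62 with Nec-1 added, so that each Nec-1 library lay above each DMSO library of the same label. *Ak4*, an adenylate kinase that HIF induces, was at 28.7 and 3.78 FPKM in the libraries of 4-OHT DMSO and at 12.5 to 26.8 in the others. *Gapdh*, a gene with many processed copies, was at 12.7 and 52.2 FPKM in 4-OHT DMSO and at 10.2 with Nec-1 added, and its values are not used as a reference here.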
